A study of Mus musculus with 6 samples.

Results

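The genes examined here are 9 calcium/calmodulin-dependent protein kinases and their upstream kinases: Camk2a, Camk2b, Camk2d and Camk2g, which encode the subunits of CaMKII, Camk1d and Camk1g of the CaMKI family, Camk4, and the CaM kinase kinases Camkk1 and Camkk2. They were taken by symbol from the 43432 listed genes of a mouse RNA-seq experiment, and all 9 were found. All 9 had whole-number expected counts in every library (tolerance 0.005), whereas 16.9% of the 22515 genes with a count had a fractional count in at least 1 library and so shared reads with other genes. An exon overlap with another annotated gene was found for Camk4 alone, with the antisense gene 2310026I22Rik, whose mean level was 0.0117 TPM (a level corrected for transcript length and scaled to a fixed total).

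Cortical neurons were taken from wild-type (WT) C57BL/6 embryos at embryonic stage E16.5, with males and females pooled, and kept in culture for 7 days. All cultures, the controls included, were silenced overnight with 1 µM tetrodotoxin, which blocks sodium channels, and 100 µM DL-AP5, which blocks NMDA receptors. They were then depolarized with 55 mM KCl for 0, 2 or 6 h, with 2 biological replicates each and 6 poly(A) libraries in all. The 0 h cultures are the control, and 6 h is also set against 2 h. The authors call the replicates biological but do not say that they came from separate dissections, so p-values measure the spread between these libraries.

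Library totals were 25959298 to 28573067 expected counts. All 10 neuronal marker genes were detected, with Tubb3 at 1660 TPM and Map2 at 1020 TPM at 0 h. Astrocyte markers summed to 675 to 745 TPM at 0 h. Markers of the oligodendrocyte lineage summed to 123 to 144 TPM, and those of progenitors and dividing cells to 123 to 136 TPM. In contrast, 4 of 6 microglial and 4 of 6 endothelial and mesenchymal markers stayed under 1 TPM in every library. The 2 h replicates stood further apart than the others: 408 of 12290 genes (3.32%) differed more than 2-fold between them, against 49 at 0 h and 40 at 6 h. Where a kinase gene passed or missed the threshold depending on a 2 h library, the value without that library is given below.

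CaM kinases are read-outs of intracellular calcium. Calcium that enters through voltage-gated channels or NMDA receptors binds calmodulin, and calcium-bound calmodulin releases the kinases from autoinhibition. CaMKII forms large holoenzymes that autophosphorylate and stay active after calcium has fallen, and it is abundant at excitatory synapses, where it is required for long-term potentiation. CaMKI and CaMKIV belong to a cascade: they reach full activity only after a CaM kinase kinase has phosphorylated their activation loop. CaMKIV is mostly nuclear in neurons and phosphorylates CREB, a transcription factor of activity-regulated genes. Transcript levels, as measured here, do not report the activity of these enzymes.

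A gene was called where its adjusted p was 0.05 or less and its fold change above 2. None of the 9 kinase genes was called in any comparison, neither with DESeq2 nor with edgeR. By the same rule 9.55% of all genes tested met it at 2 h vs 0 h, and 19.3% and 18.1% did so at 6 h vs 0 h and at 6 h vs 2 h. Unadjusted p-values under 0.05 were found for 3, 3 and 6 of the 9 genes, respectively, next to 34.8%, 50.9% and 50.9% of all genes tested. In what follows, "rose" and "fell" are used of a gene that meets the limit on the adjusted p, whatever its fold change. All fold changes are of counts normalized with DESeq2's size factors. Whether the libraries of 2 groups overlap is only a description. An exact permutation test of 2 libraries against 2 cannot give a p under 0.333, and the share of all genes without overlap is not given here. Such statements on normalized counts can differ in TPM.

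At 2 h vs 0 h, 0 of 9 kinase genes rose and 1 fell (Camk1g), where 12.3% of all genes tested rose and 14.2% fell. At 6 h vs 0 h, 1 rose (Camk2d) and 2 fell (Camk2g and Camk1d), where 23.7% of all genes rose and 21.7% fell. At 6 h vs 2 h, 2 rose (Camk1g and Camk2d) and 4 fell (Camk2b, Camk2g, Camk1d and Camkk2), where 24.1% of all genes rose and 21.2% fell. edgeR's quasi-likelihood test placed 1, 3 and 6 of the genes at or under an adjusted p of 0.05. The median log2 fold change of the 9 genes was 0.14, -0.13 and -0.22 in the 3 comparisons, next to 0.02, 0 and -0.01 over all genes tested. The comparisons share libraries, so they are not independent of each other. Among genes whose mean count reached 10, this median stood at 0.011, -0.00438 and 0.0045. It moved to -0.156, -0.251 and -0.0752 when the counts were scaled by library totals instead, and changes of that size are best read relative to it.

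**Figure D1:**
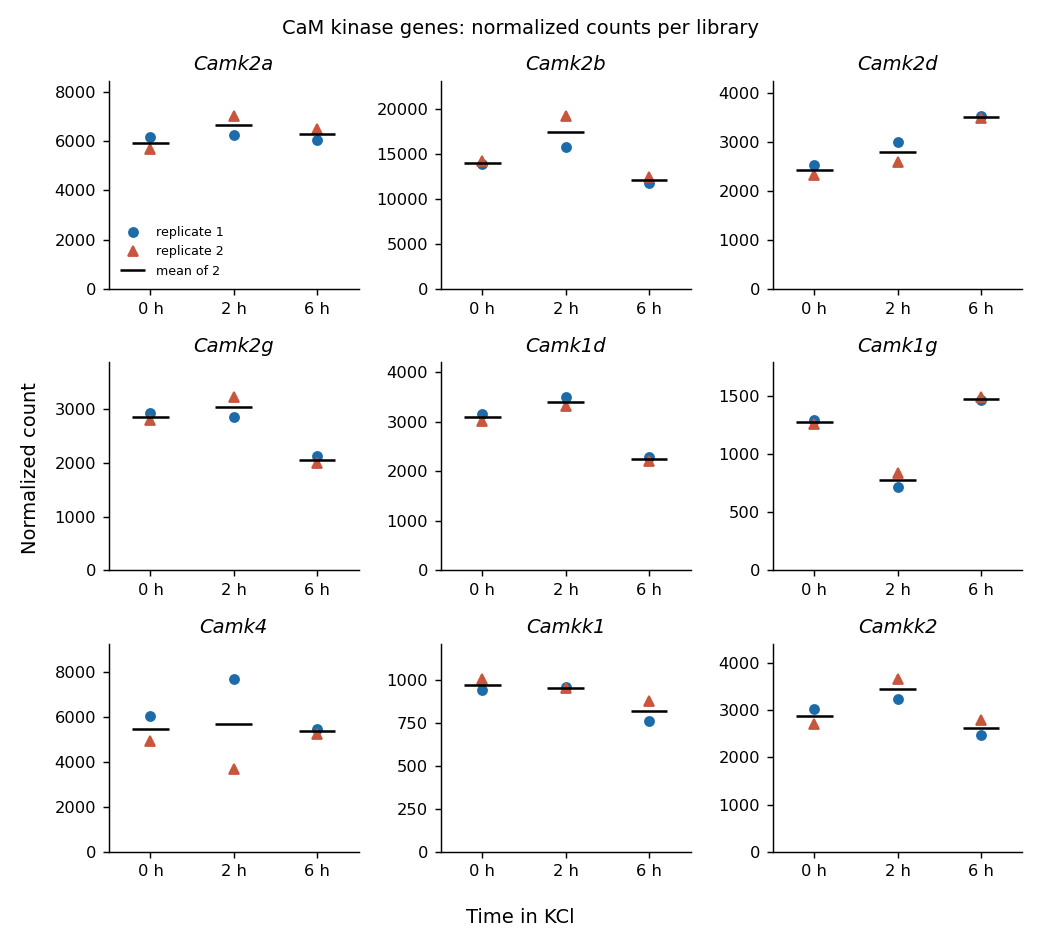
Normalized counts (y axis, from 0) of the 9 CaM kinase genes at 0, 2 and 6 h of KCl (x axis). Circles and triangles are replicates 1 and 2, and bars are means of 2 libraries. Camk1g dips at 2 h, Camk2d is highest at 6 h, Camk2g and Camk1d are lowest at 6 h, and the 2 h replicates of Camk4 stand apart at 7689 and 3690.

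**Figure D2:**
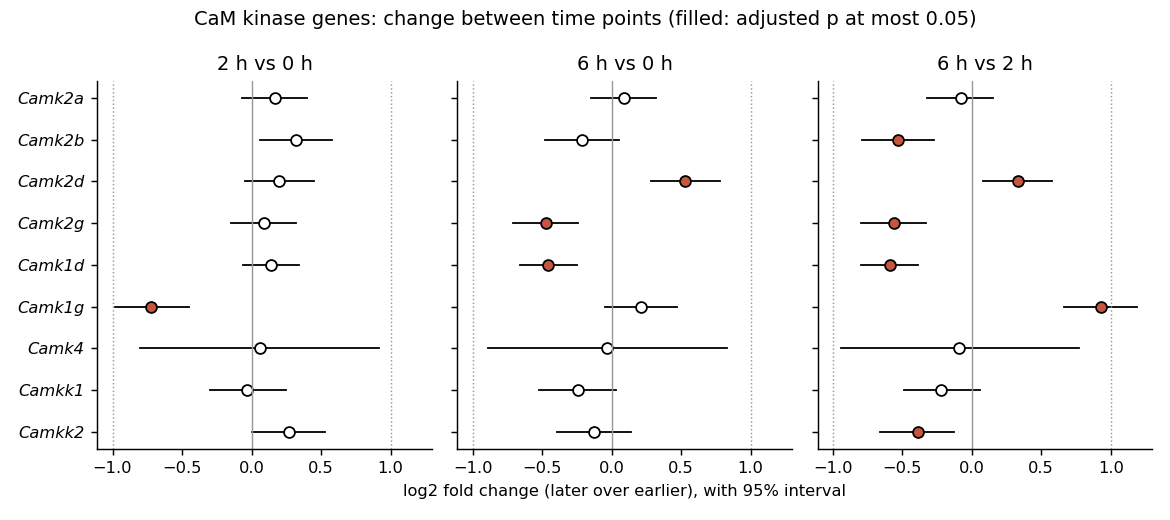
Log2 fold change (x axis, later over earlier time) of each gene with its 95% interval. Filled points have an adjusted p of at most 0.05 and dotted lines mark a fold change of 2. The change furthest from 0 is that of Camk1g at 6 h vs 2 h, 0.93.

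Among the kinase genes, Camk1g moved furthest down at 2 h vs 0 h and Camk2d furthest up at 6 h vs 0 h. The DNA around a RefSeq transcription start of each is therefore shown. The windows are those of RefSeq on GRCm38.p6 and run from before to just after the start. Of the 9 genes, 6 had a window (7 windows in all, with 2 for Camk1d). Each is written 5′ to 3′ on the strand of the gene, and capitals mark CG dinucleotides. The Camk1g window is chr1:193370233-193370532 on the minus strand, and the Camk2d window is chr3:126596701-126597000 on the plus strand. RefSeq starts can differ from the GENCODE M21 gene positions given below. The Camk2d window lies inside the GENCODE gene, which begins at 126596302, and does not hold its first base. The windows of Camk2b and Camk1d do not hold the 5′ ends of their GENCODE genes either.
Camk1g: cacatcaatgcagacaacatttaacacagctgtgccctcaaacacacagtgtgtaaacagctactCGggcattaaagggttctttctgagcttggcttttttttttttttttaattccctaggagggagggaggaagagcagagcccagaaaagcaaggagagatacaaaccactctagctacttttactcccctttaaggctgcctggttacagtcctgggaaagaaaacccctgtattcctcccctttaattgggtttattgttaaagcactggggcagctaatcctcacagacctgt
Camk2d: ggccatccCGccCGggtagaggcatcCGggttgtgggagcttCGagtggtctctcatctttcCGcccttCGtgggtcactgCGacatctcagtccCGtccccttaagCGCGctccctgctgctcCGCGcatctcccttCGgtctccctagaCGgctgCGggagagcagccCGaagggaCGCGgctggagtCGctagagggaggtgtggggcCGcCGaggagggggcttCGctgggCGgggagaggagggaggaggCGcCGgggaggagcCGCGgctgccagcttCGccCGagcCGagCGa
The Camk1g window held 44.7% G and C and 1 CG, and 14.1% of all 32851 windows held as few. The Camk2d window held 70.3% G and C and 31 CGs. Over all windows the medians were 52.7% and 7. The other kinase windows ranged from 5 CGs in 1 window of Camk1d to 51 in that of Camk2b.

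Letters of 4 motifs of activity-regulated factors were searched on both strands of these windows: TGACGTCA (the cAMP response element, CRE), TGACG (its core, which the full CRE contains), TGANTCA (AP-1) and GCGTGGGCG (EGR). They are present in 1.79%, 20.8%, 7.81% and 0.612% of all windows of this length. The only match among the kinase windows was a TGACG in that of Camkk1, at position -166 relative to the start. No match means only that these letters are not in the window.

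Among the CaMKII genes, Camk2b (ENSMUSG00000057897, chr11:5969644-6066362, minus strand, GRCm38) was the most abundant kinase gene at every time. Its product, CaMKIIβ, binds F-actin and tethers the holoenzyme in dendritic spines. Its 0 h libraries held 13881 and 14194 normalized counts, its 2 h libraries 15741 and 19260, and its 6 h libraries 11763 and 12427. In these counts the groups did not overlap: both 2 h libraries lay above, and both 6 h libraries below, the 0 h libraries. In TPM the 0 h libraries (336 and 349) and the 2 h libraries (334 and 422) overlapped. The means were 14038 ± 221, 17501 ± 2490 and 12095 ± 470, in order of time (SD, n = 2). Camk2b fell from 2 h to 6 h (log2 fold change -0.53, SE 0.13, DESeq2 adjusted p 2.49e-04). From 0 h the changes were 0.32 (SE 0.13, adjusted p 0.0601) at 2 h and -0.21 (SE 0.13, adjusted p 0.184) at 6 h. The 2 h change passed the threshold without 2 h replicate 1 (0.45, adjusted p 8.44e-10) and with correction for GC content (0.3, adjusted p 8.07e-06). It was 0.15 without 2 h replicate 2 (adjusted p 0.0994) and with library totals (adjusted p 0.511), and 0.13 on both TPM scales. The fall from 2 h was -0.66 without 2 h replicate 1, -0.37 without 2 h replicate 2 and -0.36 with GC correction, and it missed the threshold on both TPM scales (-0.45, limma adjusted p 0.0533 and 0.053). The 6 h vs 0 h change passed it with scaling by library totals (-0.46, adjusted p 0.00448) and, at -0.22, without either 2 h library (adjusted p 2.86e-04 without replicate 1 and 4.04e-04 without replicate 2).

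Camk2a (ENSMUSG00000024617, chr18:60925618-60988152, plus strand) encodes CaMKIIα, the subunit best known from long-term potentiation and a marker of excitatory forebrain neurons. The 0 h libraries held 6162 and 5665 normalized counts, its 2 h libraries 6258 and 7030, and the 6 h libraries 6040 and 6505. The 2 h libraries lay just above those at 0 h, and the 6 h libraries overlapped both. No comparison passed the threshold with all 6 libraries and DESeq2's size factors. The log2 fold change was 0.17 (95% interval -0.07 to 0.4) at 2 h vs 0 h, 0.09 (-0.15 to 0.32) at 6 h vs 0 h and -0.08 (-0.32 to 0.15) at 6 h vs 2 h, so a doubling lay outside each interval. The 2 h change passed without 2 h replicate 1 (0.24, adjusted p 0.0173), but was 0.06 without 2 h replicate 2 (adjusted p 0.681) and 0 with library totals. The 6 h vs 0 h change passed with GC correction (0.2, adjusted p 0.0317). It missed the threshold when the replicate number was added as a block to that correction (0.2, adjusted p 0.0529), and was -0.16 with library totals.

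Camk2d (ENSMUSG00000053819, chr3:126596302-126846326, plus strand) encodes CaMKIIδ, the main CaMKII subunit of heart muscle, which neurons also make. Its 0 h libraries held 2534 and 2319 normalized counts, its 2 h libraries 2991 and 2591, and its 6 h libraries 3533 and 3482. In these counts the 6 h libraries were the highest, and no groups overlapped. In TPM the 0 h libraries (88.1 and 75.1) and the 2 h libraries (74.8 and 82.4) overlapped. Camk2d rose 1.45-fold from 0 h to 6 h (log2 0.53, SE 0.13, adjusted p 1.11e-04) and 1.26-fold from 2 h to 6 h (log2 0.33, SE 0.13, adjusted p 0.0225). The rise over 0 h missed the threshold without 0 h replicate 2 (0.47, adjusted p 0.0552) and on both TPM scales (0.28, limma adjusted p 0.0926 and 0.0957). The rise over 2 h passed with edgeR's test and TMM factors (0.3, adjusted p 0.0305). It missed the threshold with DESeq2 and TMM factors (0.29, adjusted p 0.0593), with library totals (0.25, adjusted p 0.0658), on both TPM scales (limma adjusted p 0.0647 and 0.0664) and without any single 0 h or 6 h library (adjusted p 0.0975 to 0.235). At 2 h vs 0 h the change was 0.2 (adjusted p 0.263), and it passed without 2 h replicate 2 (0.28, adjusted p 0.0174) and with GC correction (0.24, adjusted p 0.0122). It was 0.08 without 2 h replicate 1 (adjusted p 0.596), 0.03 with library totals and -0.05 on both TPM scales.

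Camk2g (ENSMUSG00000021820, chr14:20734875-20794088, minus strand) encodes CaMKIIγ, which can carry calcium-bound calmodulin from the cell surface to the nucleus. Normalized counts were 2928 and 2803 in its 0 h libraries, 2861 and 3226 in its 2 h libraries, and 2127 and 1998 in its 6 h libraries. The 6 h libraries were below all others, and the 0 h and 2 h libraries overlapped. Camk2g fell by 28.0% from 0 h to 6 h (log2 -0.47, SE 0.12, adjusted p 3.14e-04) and fell by 32.2% from 2 h to 6 h (log2 -0.56, SE 0.12, adjusted p 1.65e-05). The fall from 0 h missed the threshold without 0 h replicate 1 (adjusted p 0.0738) or without 6 h replicate 2 (adjusted p 0.0753), at -0.44 and -0.43.

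Levels of different genes can be compared in TPM. At 0 h Camk2b stood at 342 ± 8.9 TPM (SD, n = 2), well above Camk2a at 92.6 ± 7.58 and Camk2d at 81.6 ± 9.19, whose libraries overlapped, and Camk2g at 60.4 ± 1.23. At 6 h Camk2b was at 275 ± 11 TPM, Camk2d at 99.2 ± 1.94 and Camk2a at 97.6 ± 3.8, the latter pair again overlapping, and Camk2g at 38.8 ± 1.27. The 4 genes summed to 577 ± 9.11 TPM at 0 h, 612 ± 81 at 2 h and 511 ± 11.5 at 6 h.

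As a share of this sum, Camk2b made up 57.6% and 61.1% in the 0 h libraries, 60.2% and 63.1% at 2 h, and 53.2% and 54.5% at 6 h. The share of Camk2d was 15.1% and 13.2% at 0 h and at least 18.9% in both 6 h libraries, with a mean of 19.4%. That of Camk2a was 16.8% and 15.3% at 0 h and 18.9% and 19.3% at 6 h, and that of Camk2g was 10.5% and 10.4% at 0 h and 7.9% and 7.3% at 6 h. The shares of Camk2b and Camk2g were lower at 6 h than at 0 h, and those of Camk2a and Camk2d were higher, without overlap of the libraries. The shares sum to a fixed total and so are not independent of each other. The ratio of Camk2b to Camk2a TPM was 3.71 ± 0.4 before KCl and 3.84 ± 0.336 after 2 h, and it was lowest after 6 h (2.82 ± 0.00274). These shares are given as a description, with no test. In bulk RNA, fewer cells of a type and less RNA per cell cannot be told apart, in these shares as in every fold change here.

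**Figure D3:**
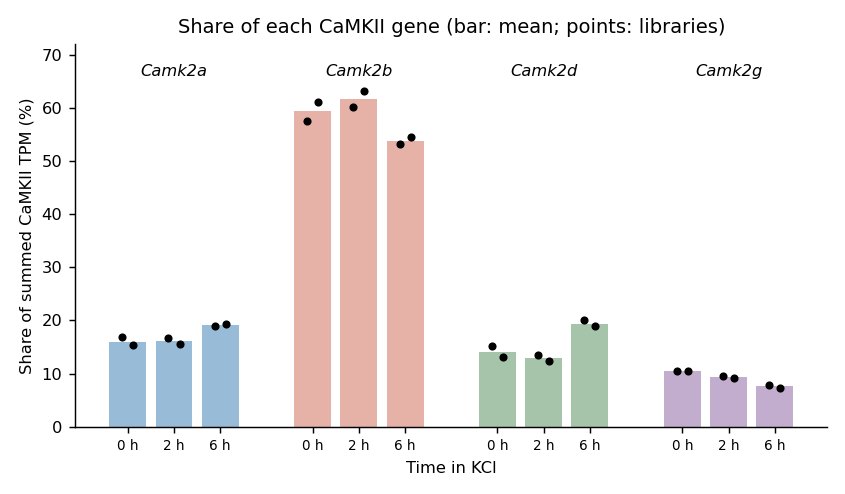
Share of each CaMKII gene in the summed TPM of the 4 genes (y axis, percent, from 0) at 0, 2 and 6 h of KCl (x axis). Bars are means and points are the 2 libraries. At 6 h Camk2b makes up 53.8% and Camk2d 19.4%, against 59.4% and 14.1% at 0 h.

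Camk1g (ENSMUSG00000016179, chr1:193346346-193370298, minus strand) encodes CaMKIγ, a CaMKI that is anchored to membranes by lipid modification and takes part in dendrite growth. It had the widest changes of the 9 genes. Its 0 h libraries held 1298 and 1262 normalized counts, its 2 h libraries 719 and 838.4, and its 6 h libraries 1465 and 1492. The 2 h libraries were far below all others, and the 6 h libraries were above those at 0 h, so no groups overlapped. Camk1g fell by 39.2% at 2 h, from 1280 ± 25.6 to 778.7 ± 84.5 (log2 -0.72, SE 0.13, adjusted p 1.29e-06). It then rose 1.9-fold by 6 h, to 1478 ± 19 (log2 0.93, SE 0.13, adjusted p 7.03e-11). At 6 h vs 0 h the change was 0.21 (SE 0.13, adjusted p 0.195), and it passed with GC correction (0.29, adjusted p 0.00736). It was -0.04 with library totals, and 0.05 and 0.06 on the TPM scales. With 1 library left out, the fall at 2 h ranged from -0.85 (2 h replicate 2) to -0.62 (2 h replicate 1), and the rise after it from 0.83 to 1.05. The fall was -0.88 with library totals, and the rise was 0.78 on log2(TPM + 1). Without 2 h replicate 2 the rise passed the fold change of 2, at 1.05. In TPM, Camk1g went from 43.9 ± 0.566 to 26.2 ± 3.3 and back to 45.6 ± 0.849. Its rank by TPM among the 9 genes was 6 at 0 h, 8 at 2 h, where its libraries lay within the wide range of Camk4, and 4 at 6 h.

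Camk1d (ENSMUSG00000039145, chr2:5293457-5714515, minus strand) encodes CaMKIδ, the other CaMKI followed here. The 0 h libraries held 3161 and 3013 normalized counts, its 2 h libraries 3494 and 3307, and its 6 h libraries 2288 and 2216. The 2 h libraries lay slightly above those at 0 h, and the 6 h libraries were below all others. Camk1d fell by 27.1% from 0 h to 6 h (log2 -0.46, SE 0.10, adjusted p 5.72e-05) and fell by 33.8% from 2 h to 6 h (log2 -0.59, SE 0.10, adjusted p 9.68e-08). At 2 h vs 0 h the change was 0.14 (adjusted p 0.365), and it was -0.11 on the TPM scale. The fall from 0 h missed the threshold without 0 h replicate 1 (-0.42, adjusted p 0.0673) or without 6 h replicate 2 (-0.43, adjusted p 0.0552). The pair of CaMKI genes thus stood at 43.9 TPM (Camk1g) and 36.2 TPM (Camk1d) at 0 h, at 26.2 and 33.5 TPM at 2 h, and at 45.6 and 22.3 TPM at 6 h. Their order was reversed at 2 h and restored at 6 h, with no overlap of libraries at any of the 3 times.

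Astrocyte markers were also lower in the 6 h libraries, where Camk2g and Camk1d were lowest. Their summed level was 675 to 745 TPM at 0 h, 652 to 691 TPM at 2 h and 507 to 527 TPM at 6 h, and 3 of the 6 fell and none rose at 6 h vs 0 h. None of them was at 0 (Gfap was at 24.9 TPM at 0 h and 14.2 TPM at 6 h). Of the 10 neuronal markers, 6 rose and 2 fell in this comparison, in which 23.7% of all genes rose and 21.7% fell. Mean TPM of the neuronal marker Tubb3 was 1660 at 0 h and 730 at 6 h, and that of Gad1, a marker of inhibitory neurons, was 158 and 370. Their part in the changes of the kinase genes was not tested.

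Camk4 (ENSMUSG00000038128, chr18:32934931-33191228, plus strand) encodes CaMKIV, the nuclear kinase of the cascade. Normalized counts were 6011 and 4921 in its 0 h libraries, 7689 and 3690 in its 2 h libraries, and 5465 and 5251 in its 6 h libraries. The 2 h replicates differed 2.08-fold and bracketed all the other libraries, while the 0 h replicates differed 1.22-fold and the 6 h replicates 1.04-fold. The fitted change was 0.06 (95% interval -0.8 to 0.92) at 2 h vs 0 h and -0.03 (-0.89 to 0.83) at 6 h vs 0 h, so changes up to nearly 2-fold in either direction could not be told from none. Without 2 h replicate 1, Camk4 at 2 h vs 0 h was at -0.58 (adjusted p 7.94e-07), and without 2 h replicate 2 it was at 0.48 (adjusted p 5.43e-05). At 6 h vs 2 h it was at 0.55 (adjusted p 1.81e-06) and -0.51 (adjusted p 8.67e-06), respectively. Each 2 h library alone thus gives changes past the threshold, and the directions are opposite. The sole listed Camk4 transcript is 2717 bases long in the annotation used here, while the effective length deposited by the authors was 12009 to 12029 bases, so a GC content computed from that transcript is not that of the one the authors used.

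The other kinase genes differed less between the 2 h replicates. Their log2 differences (replicate 1 minus replicate 2) ran from -0.29 for Camk2b to 0.21 for Camk2d. A smooth curve of the replicate difference on GC content gave values from -0.22 for Camk2b to 0.12 for Camk2d at 2 h, and 0.02 for Camk4, with the limit on its GC content named above.

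Camkk2 (ENSMUSG00000029471, chr5:122731170-122779409, minus strand) encodes CaMKKβ, which activates CaMKI, CaMKIV and the energy sensor AMPK. Its 0 h libraries held 3020 and 2712 normalized counts, its 2 h libraries 3238 and 3665, and its 6 h libraries 2471 and 2785. The 2 h libraries were above all others, and the 0 h and 6 h libraries overlapped. Camkk2 fell by 23.9% from 2 h to 6 h (log2 -0.39, SE 0.14, adjusted p 0.0106). This fall missed the threshold without 6 h replicate 1 (-0.31, adjusted p 0.232) or without 6 h replicate 2 (-0.48, adjusted p 0.0525), and on both TPM scales (-0.39, limma adjusted p 0.062 and 0.0627). Its change at 2 h vs 0 h was 0.27 (SE 0.14, adjusted p 0.14), and it passed the threshold without 2 h replicate 1 (0.34, adjusted p 0.00623) and with GC correction (0.28, adjusted p 0.0121). It was 0.16 without 2 h replicate 2 (adjusted p 0.32), 0.1 with library totals and 0.08 on log2(TPM + 1). Its change at 6 h vs 0 h passed only with library totals (-0.37, adjusted p 0.0233).

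Camkk1 (ENSMUSG00000020785, chr11:73019008-73042073, plus strand), which encodes CaMKKα, had the lowest mean level of the 9 genes at each time, at 22.9 ± 0.502 TPM at 0 h and 17.1 ± 3.06 TPM at 6 h (SD, n = 2). In 2 h replicate 2 alone Camk4 was lower, at 19.3 TPM against 19.8 TPM for Camkk1. The 0 h libraries held 941.9 and 1011 normalized counts, its 2 h libraries 961.7 and 956.3, and its 6 h libraries 766.1 and 883. Both 6 h libraries were below all others. No comparison passed the threshold, with log2 fold changes of -0.03 (95% interval -0.3 to 0.25) at 2 h vs 0 h, -0.24 (-0.52 to 0.03) at 6 h vs 0 h and -0.22 (-0.49 to 0.06) at 6 h vs 2 h. With library totals the 6 h vs 0 h change passed (-0.49, adjusted p 0.00313).

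RSEM also gives each gene an effective length, the mean length of its transcripts weighted by their abundance and reduced for fragment size. It moves when the mix of long and short transcripts moves. Here a gene was called where limma's adjusted p was 0.05 or less and the log2 ratio was 0.2 or more in size. None of the 9 genes was called, where 0.0356% of the 11233 genes tested were so at 2 h vs 0 h. The share was 0.525% at 6 h vs 0 h and 0.116% when 6 h was set against 2 h. Camk4 and Camkk2 have 1 listed transcript each, so their effective length cannot report a mix.

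The effective length of Camk1g was 2067 and 2061 bases in the 0 h libraries, 1858 and 1846 in those of 2 h and 2004 and 2025 in those of 6 h. The 2 h libraries were the shortest, at the time when its count was lowest, and no groups overlapped. The log2 ratio was -0.16 (SE 0.008, adjusted p 0.0676) at 2 h vs 0 h and 0.12 (SE 0.008, adjusted p 0.0529) at 6 h vs 2 h. Camk1g has 4 listed transcripts of 754 to 2469 bases.

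The effective length of Camk2a was 4434 and 4611 bases in the 0 h libraries, 4162 and 4264 in those of 2 h and 3915 and 4066 in those of 6 h. Each later group lay below the earlier one without overlap. The log2 ratio at 6 h vs 0 h was -0.18 (SE 0.032, adjusted p 0.135), a difference of 11.8% of the 0 h mean (a percent change of -11.8). For Camk2b the 6 h libraries were at 2710 and 2757 bases and the 0 h libraries at 2911 and 2890 (log2 ratio -0.09, SE 0.013, adjusted p 0.11). Neither passed the threshold. Camk2d, with 22 listed transcripts, spread from 1978 to 2467 bases between the 2 h replicates alone, which is wider than its range at 0 h and 6 h.

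**Figure D4:**
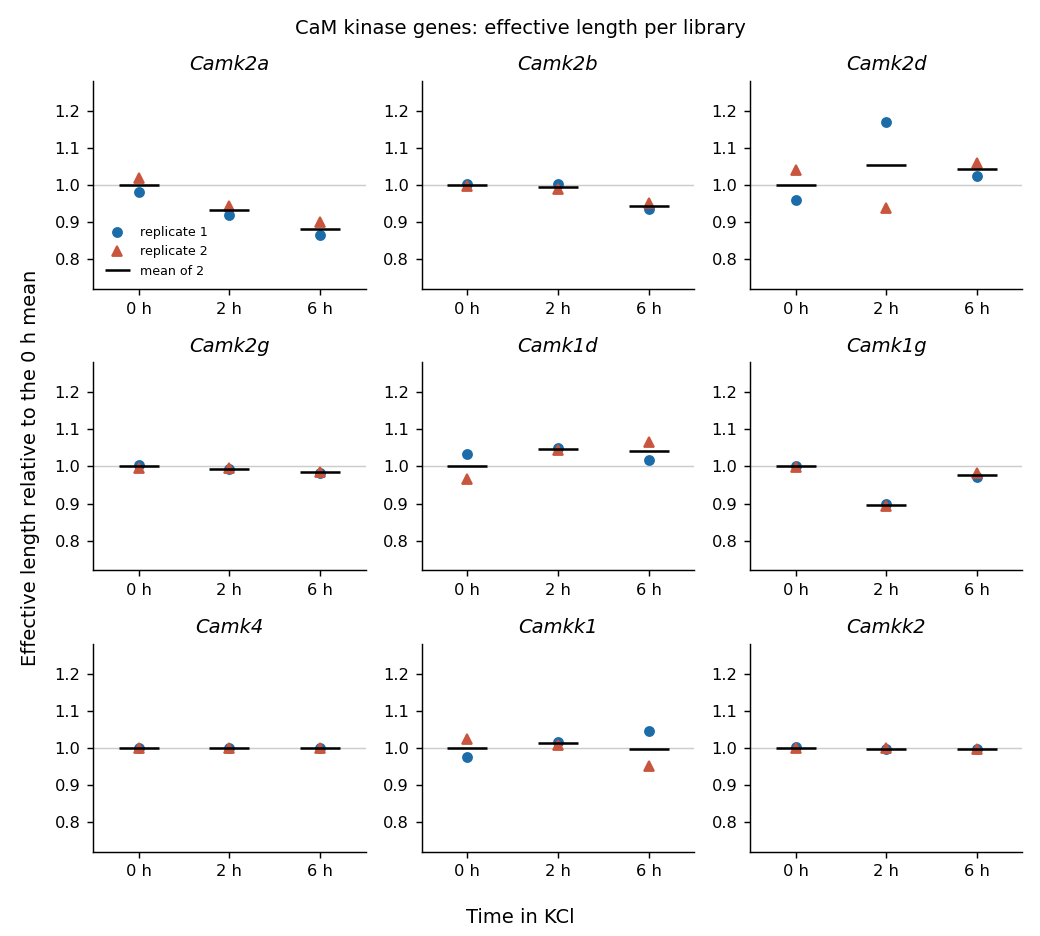
Effective length of each kinase gene relative to its mean at 0 h (y axis, ratio) at 0, 2 and 6 h of KCl (x axis). Circles and triangles are replicates 1 and 2, and bars are means. Camk1g is shortest at 2 h (1852 bases on average against 2064 at 0 h), Camk2a averages 4523, 4213 and 3991 bases at the 3 times, and Camk4 and Camkk2 have 1 transcript.

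The kinases act with calmodulin, inhibitors, phosphatases and substrates, so 66 further genes in 9 lists were read from the same fit. Of the 63 tested, 17 rose and 6 fell at 2 h vs 0 h, 28 rose and 10 fell at 6 h vs 0 h, and 22 rose and 9 fell at 6 h vs 2 h. With the fold change of 2 the counts were 2 and 4, 9 and 4, and 6 and 1. Over all genes tested they were 609 and 1000 of 16840, 1572 and 1761 of 17277, and 1654 and 1316 of 16404. No set test was made, and the all-gene shares given above are the background.

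Upstream of the kinases, the calmodulin gene Calm2 rose by 0.41 (adjusted p 8.21e-04) at 2 h and by 0.44 (adjusted p 1.37e-04) at 6 h on the log2 scale, both relative to 0 h. Of the proteins that bind calmodulin and limit its free pool, Gap43 rose (0.35 and 0.24, adjusted p 0.00329 and 0.0384), and the other 3 passed in no comparison. Of the CaMKII inhibitors, Camk2n1 rose by 0.4 at 2 h (adjusted p 0.033) and fell by 0.35 from 2 h to 6 h (adjusted p 0.0433). Its 2 h replicates stood apart, at 44.7 and 35.8 TPM, next to 33.9 and 35.4 TPM at 0 h and 31 and 32.1 TPM at 6 h. Camk2n2 passed in no comparison.

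Of the pair of phosphatase genes, Ppm1f was called. It encodes a phosphatase that removes the activating phosphates of CaM kinases. Its mean normalized count went from 1785 ± 43 to 762.6 ± 28.7 at 2 h and stood at 862.6 ± 47.1 at 6 h (SD, n = 2). Ppm1f fell to 0.427 of its 0 h level at 2 h (log2 -1.23, SE 0.12, adjusted p 1.75e-21) and to 0.483 at 6 h (log2 -1.05, SE 0.12, adjusted p 2.21e-16). At 6 h it was under the fold change of 2 with GC correction and without 6 h replicate 1. Its relative Ppm1e, which is largely neuronal, was at -0.16 (adjusted p 0.558) at 2 h vs 0 h and rose by 0.52 from 2 h to 6 h (adjusted p 0.00427).

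Among 8 other members of the CaM kinase family, Dclk3 and Pskh1 fell by more than 2-fold. Dclk3, a doublecortin-like kinase, went from 698.4 ± 10.4 normalized counts to 176.7 ± 32.3 at 2 h and 232.8 ± 16 at 6 h (SD, n = 2). Its change was -1.98 (SE 0.20, adjusted p 3.51e-22) at 2 h and -1.58 (SE 0.19, adjusted p 3.25e-15) at 6 h, both against 0 h. Pskh1, a little-studied serine kinase, changed by -1.57 (adjusted p 4.93e-06) and -1.39 (adjusted p 3.07e-05) from 276.1 ± 54 normalized counts at 0 h. Dclk2 rose by 0.49 at 2 h and 0.64 at 6 h, and Dclk1 rose by 0.42 at 6 h. Of the other CaMKI genes in this list, Pnck, which encodes CaMKIβ, fell by 0.39 from 2 h to 6 h (adjusted p 0.0299), and Camk1 passed in no comparison, nor did the kinase-like Camkv.

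Among 10 tested kinases that calmodulin regulates in other ways, Eef2k fell furthest. It encodes the calmodulin-dependent kinase that slows translation elongation by phosphorylating eEF2. Its mean normalized count went from 1988 ± 29 to 1424 ± 93.8 at 2 h and to 576.7 at 6 h (SD, n = 2). The log2 fold change was -0.48 (adjusted p 4.53e-04) at 2 h and -1.79 (SE 0.12, adjusted p 1.59e-44) at 6 h vs 0 h, and -1.3 (SE 0.13, adjusted p 1.69e-23) at 6 h vs 2 h. The myosin light chain kinase genes Mylk and Mylk3 rose at 6 h from low counts. Mylk went from 16.04 to 50.42 normalized counts (log2 1.65, adjusted p 0.00306) and Mylk3 from 3.905 to 36.47 (log2 3.23, adjusted p 1.71e-04), and the call of Mylk was lost without any single 0 h or 6 h library. Neither was called on log2(TPM + 1).

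Among the subunits of AMPK, a kinase that CaMKKβ activates, and its other activator Stk11, the catalytic Prkaa1 fell at 2 h from 766.2 ± 7.38 to 306.4 ± 75.1 normalized counts (SD, n = 2), log2 -1.32 (SE 0.20, adjusted p 1.02e-09). It rose again by 6 h (0.88 vs 2 h, adjusted p 6.42e-05). The other catalytic gene, Prkaa2, rose from 1449 ± 510 at 2 h to 2932 ± 118 at 6 h (log2 1.02, SE 0.23, adjusted p 4.64e-05), and was under the fold change of 2 in 8 of 16 alternatives, among them edgeR's test. Prkaa1 and Camk1g thus both had a low point at 2 h, a time at which 14.2% of all genes tested fell. At 6 h vs 0 h, 3 of the 7 tested genes of this list rose and 2 fell (Prkab2 and Prkag2), next to 23.7% and 21.7% of all genes.

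Of 15 anchors and substrates of CaMKII at synapses, 9 rose and 2 fell at 6 h vs 0 h, next to 23.7% and 21.7% of all genes. Those that rose included Tiam1, a Rac exchange factor (1.15, SE 0.11, adjusted p 1.16e-25, and 0.9 with library totals), and Grin1, the obligatory NMDA receptor subunit (0.58, adjusted p 3.17e-05). Gria1, the AMPA receptor subunit that CaMKII phosphorylates, fell by 0.58 (adjusted p 1.16e-05), and the calcium channel subunit Cacna1c fell by 0.44 (adjusted p 7.54e-04). Grin2b, which anchors CaMKII at the NMDA receptor, fell by 0.49 at 2 h (adjusted p 0.0115) and was at 0.01 at 6 h, both vs 0 h. Cacnb2, another channel subunit, rose by 1.04 from 2 h to 6 h (adjusted p 3.35e-06), but was under the fold change of 2 in 5 of 16 alternatives: library totals, GC correction with and without the replicate block, and without 2 h replicate 2 or 6 h replicate 1.

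Of 11 nuclear targets of CaMKIV and CaMKI, 8 rose and none fell at 6 h vs 0 h, next to 23.7% and 21.7% of all genes. Of these, 6 rose by more than 2-fold, where 1572 of the 17277 genes tested were called higher. The list was chosen with earlier results of these data known, so these counts are a description. Crem, a CREB relative, rose from 209 ± 10.7 to 3693 ± 151 normalized counts (SD, n = 2; log2 4.14, SE 0.20, adjusted p 1.13e-88) and was already at 3.62 at 2 h (adjusted p 1.78e-67). Srf, a serum response factor gene, was at 1.37 at 2 h (adjusted p 6.72e-32) and 1.36 at 6 h (adjusted p 1.03e-31). The coactivator gene Crebbp was at 1.24 (adjusted p 1.59e-22), Hdac4 at 1.11 (adjusted p 1.99e-18), Hdac5 at 1.06 (adjusted p 2.94e-09) and Creb1 at 1.00 (adjusted p 0.00146) at 6 h vs 0 h. With scaling by library totals Crebbp, Hdac4, Hdac5 and Creb1 were under the fold change of 2, as were Crebbp on log2(TPM + 1) and Hdac5 on both TPM scales and without 6 h replicate 2. Creb1 was over it in 7 of 16 alternatives at 6 h vs 0 h and in all 16 at 6 h vs 2 h, where its change was 1.47 (adjusted p 1.59e-06). Its size there depended on the 2 h library, at 2.08 without replicate 1 and 1.06 without replicate 2. Hdac4 rose at 6 h vs 2 h as well (1.15, adjusted p 2.17e-19). These targets are regulated by phosphorylation in the cascade, which transcript levels do not show.

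**Figure D5:**
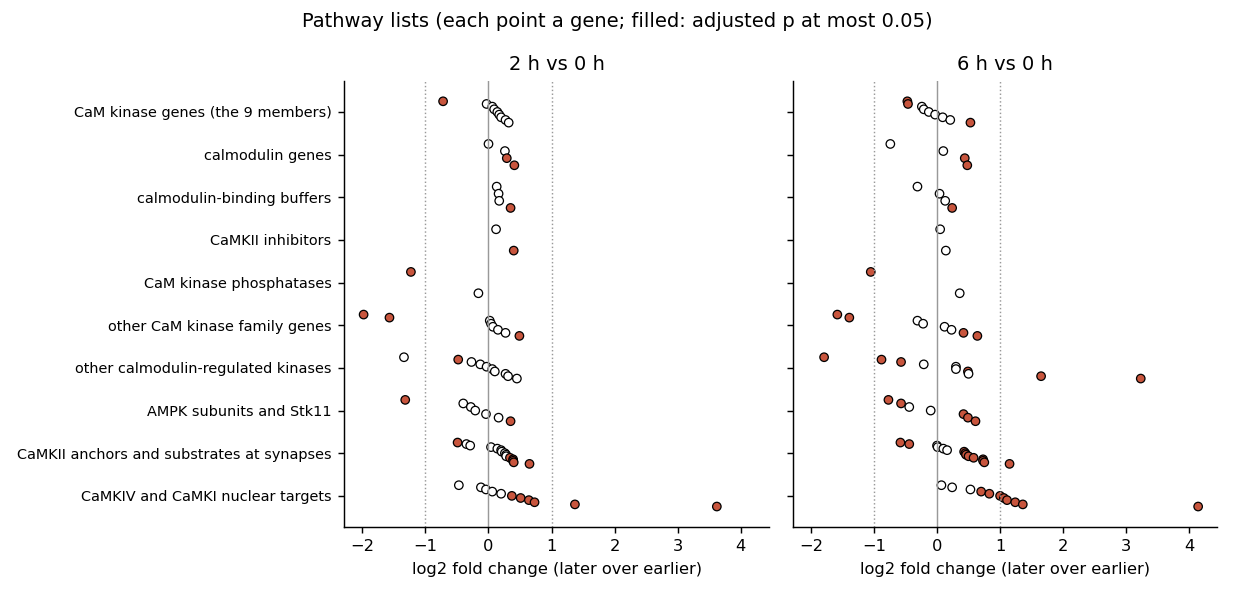
Log2 fold change (x axis) at 2 h vs 0 h (left) and 6 h vs 0 h (right) of each gene of the 9 kinase genes and the 9 lists (rows). Each point is a gene, filled points have an adjusted p of at most 0.05 and dotted lines mark a fold change of 2. The 9 kinase genes lie between -0.72 and 0.53, and Crem lies furthest right at 3.62 and 4.14.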

How the data were processed

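Poly(A) RNA of 6 cultures was sequenced. The authors trimmed reads with Trim Galore and mapped them to mm10, and RSEM 1.3.0 and Bowtie2 2.2.9 are named in the submitters' processing notes. The annotation release and the strand setting are not given in the sources used here. The expected counts deposited by the authors are RSEM's raw estimates of the reads of each gene. TPM, also deposited by the authors, adjusts these for transcript length and sums to a fixed total. The effective lengths deposited by the authors (bases) are listed for each gene and library as another column. FPKM and nominal length were not used.

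Of 43432 identifiers, 42462 matched a symbol and a position in GENCODE M21 (GRCm38), whose release may differ from that of the authors. Groups and replicate numbers came from the sample titles.

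DESeq2 1.42.0 in R 4.3.3 was run on rounded expected counts of 22515 genes with reads in at least 1 library, in a single fit of 6 libraries with group as sole term, median-of-ratios size factors, Wald tests and Benjamini-Hochberg adjustment after independent filtering. The thresholds (adjusted p 0.05, log2 fold change beyond 1 in size) follow the study's methods. Log2 effective length was tested with limma 3.58.1 (trend) where the mean expected count was 100 or more. Alternatives were edgeR 4.0.16, TMM or total scaling, other filters, GC correction (curve fitted on genes with a mean count of 50 or more), a replicate block, limma on log2(TPM + 1) or log2(TPM + 0.1), and leaving out each library. For effective length, 1 alternative (genes with 2 or more listed transcripts) was added after seeing the data. The scripts were tested on simulated data. Intervals are 95%. Reads carry no molecular identifiers. Standard errors and p-values rest on the spread between libraries.

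The kinase genes, gene lists, markers and motifs were chosen with earlier results of these data known. By rule, all 9 kinase genes and every list gene called in any comparison were named. Other list genes were named after their values were seen, and some list genes are not reported here.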

Additional observations from a re-analysis of the deposited data

How the results depend on the processing

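Of 459 fold changes of the 9 kinase genes under the alternatives, 382 kept their direction and their side of the limit of 0.05 on the adjusted p, 31 lost it, 21 gained it and 25 changed sign. The fall of Camk1g at 2 h and its rise after 2 h passed in 16 of 17 alternatives, the exception being a test against a fold change of 2, by which 0 kinase genes passed at 2 h vs 0 h, 0 at 6 h vs 0 h and 0 at 6 h vs 2 h. That test also reduced the calls among all genes, to 178 higher and 225 lower, 446 and 414, and 342 and 198, respectively. On log2(TPM + 1), 257 genes were called higher at 2 h vs 0 h, 777 higher at 6 h vs 0 h and 750 lower at 6 h vs 2 h, and scaling by library totals gave 1032 higher at 6 h vs 0 h. The number of kinase genes with an adjusted p of at most 0.05 was 1, 3 and 6 in the 3 comparisons. GC correction gave 4 and 5 in the first pair of comparisons, library totals gave 6 at 6 h vs 0 h, and both TPM scales gave 3 at 6 h vs 2 h (the cause was not tested). Leaving out 1 library gave 1 to 5 at 2 h vs 0 h, 1 to 4 at 6 h vs 0 h and 4 to 7 at 6 h vs 2 h, with 0 to 1 called at 6 h vs 2 h. A group left with 1 library is assumed to vary like the others.

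Replicate numbers are shared between the groups but not said to mark a batch, and the deviations of same-numbered libraries correlated across genes at 0.25 (0 and 2 h), -0.0141 (0 and 6 h) and 0.145 (2 and 6 h). With the replicate number as a block (replicate block), 2 kinase genes passed at 2 h vs 0 h (Camk2b joined, 0.31), 3 at 6 h vs 0 h and 6 at 6 h vs 2 h, and the block with GC correction gave 4, 4 and 6.

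All 25 sign changes were of fold changes that missed the limit with all 6 libraries. At 2 h vs 0 h, Camk2g was at -0.08, Camk1d at -0.03 and Camk4 at -0.12 with library totals. On both TPM scales Camk2d was at -0.05, Camk2g at -0.09, Camk1d at -0.11 and Camk4 at -0.2 and -0.21, and Camk4 was at 0 with the block. At 6 h vs 0 h, Camk2a was at -0.16 and Camk1g at -0.04 with library totals. At 6 h vs 2 h, Camk2a was at 0.02 with GC correction, alone or with the block, and Camk4 at 0 on both TPM scales. With 1 library left out, the ranges that cross 0 were, at 2 h vs 0 h, -0.02 to 0.16 (Camk2g), -0.58 to 0.48 (Camk4) and -0.07 to 0.03 (Camkk1), at 6 h vs 0 h, -0.16 to 0.13 (Camk4), and at 6 h vs 2 h, -0.16 to 0.02 (Camk2a) and -0.51 to 0.55 (Camk4).

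For log2 effective length, no kinase gene was called under any alternative, and 255 of 264 values kept their direction. With 1 library left out the ranges that reach or cross 0 were, at 2 h vs 0 h, -0.02 to 0 (Camk2b), -0.09 to 0.23 (Camk2d) and -0.02 to 0.05 (Camkk1), at 6 h vs 0 h, -0.07 to 0.06 (Camkk1), and at 6 h vs 2 h, -0.17 to 0.15 (Camk2d), -0.04 to 0.02 (Camk1d) and -0.09 to 0.04 (Camkk1).

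Of 26 calls of 16 pathway genes, 14 held in all 16 alternatives other than the test against a fold change of 2, and none changed sign.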

Other observations

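The profile of Camk1g over the 6 libraries was compared with those of 11182 other genes whose mean normalized count reached 100, as the Euclidean distance between log2(normalized count + 1) values centred on each gene's mean. Since no kinase gene was called, this comparison was chosen after the values of Camk1g were seen, and it is a description. The nearest genes were Mtmr4 (distance 0.0809), Ryk (0.0867) and Usp30 (0.0871). Mtmr4, a phosphoinositide phosphatase gene, had mean normalized counts of 4004, 2455 and 4860 at the 3 times (log2 -0.71 at 2 h vs 0 h and 0.99 at 6 h vs 2 h). Ryk, a Wnt receptor gene, had 1168, 681.8 and 1323 (-0.78 and 0.96), and Usp30, a mitochondrial deubiquitinase gene, had 871.1, 558.5 and 1019 (-0.64 and 0.87).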
